A study of Mus musculus with 2 samples.

Results

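miR-21, miR-146a, miR-146b and miR-155 are known from inflammation and from breast tumours, and their signals were set side by side for the 3rd mammary gland (called the gland here) and the inter mammary gland region (called the inter region) of mouse embryos. They were chosen by name, as the 4 of the 696 mouse miRNAs on the array that the files list as mmu-miR-21, mmu-miR-146a, mmu-miR-146b and mmu-miR-155. Both regions were dissected from untreated ICR embryos at E13.5, when the mammary epithelium is a bud, and the inter region is the piece of flank that separates the 3rd from the 4th gland. Total RNA (100 ng per region) was given a Cy3 label and hybridized to 1 Agilent miRNA array, where each miRNA has several probes and each probe is printed as replicate spots. How many embryos gave each RNA was not given in the sources used here. A single array stands for each region, so the differences between regions could not be tested, and every ± below is the technical SD over the spots of 1 array.

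A miRNA acts mainly through its seed, the bases near its 5′ end that pair with target mRNAs. miR-21 is abundant in many tissues, is raised in breast and many other tumours, and represses Pdcd4, which restrains growth. miR-146a is induced by NF-κB after Toll-like receptor signals. The miR-146 pair represses Traf6 and Irak1, signalling proteins of the same pathway, so that it damps the response. miR-155 is made from the transcript once called BIC, is induced in activated lymphocytes and macrophages, and represses Socs1, an inhibitor of cytokine signalling.

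The mature sequences are shown because shared seeds and near-identical strands set what an array probe can tell apart. The unstarred array names were taken as the 5′ arms of current RefSeq (assembly GRCm38.p6) and the starred names as the 3′ arms. All 4 were matched by name on this assumption, since no probe sequences were at hand to check it. Each is written 5′ to 3′ with the seed, bases 2 to 8, in capitals.
miR-21 (mmu-miR-21a-5p, chr11:86584120-86584141, minus strand): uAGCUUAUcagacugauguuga
miR-146a (mmu-miR-146a-5p, chr11:43374435-43374456, minus strand): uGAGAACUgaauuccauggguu
miR-146b (mmu-miR-146b-5p, chr19:46342790-46342811, plus strand): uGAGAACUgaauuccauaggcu
miR-155 (mmu-miR-155-5p, chr16:84714143-84714165, plus strand): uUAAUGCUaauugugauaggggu
miR-146a and miR-146b carried the same seed and were identical at 20 of 22 bases. Counted from the 5′ end, the differences from miR-146a to miR-146b were G18A and U21C, both outside the seed. How far the probes of one also bind the other was not tested. Among the 1679 mature names of the RefSeq table, the miR-21 seed was shared only by miR-21c, whose first 15 bases are those of miR-21 and which has no probe of its name on the array, and the miR-155 seed by no other name. In the same annotation the gene of miR-21 lies within the interval of Vmp1, that of miR-155 within Mir155hg, and that of miR-146b within the lncRNA Gm36493, while no gene interval holds that of miR-146a.

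The arrays were alike in quality. On each, 38.1% of the spots for miRNAs were well above background, and 0 were saturated. The negative control spots had a mean background-subtracted signal of 3.81 ± 5.28 (SD over 432 spots) and reached 17.3 for the gland, against 2.23 ± 5.07 (SD over 428 spots) and up to 19.2 for the inter region. Detection of a probe required over 50% of its spots to be well above background, and detection of a miRNA required 1 such probe. By this rule 284 miRNAs were detected on both arrays, 384 on neither. Ratios are those of the gland over the inter region, after scaling each array to its own 75th percentile over the probes that both arrays detected (a signal of 786 in the gland and 719 in the inter region).

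miR-21 was detected in both regions at signals that, after scaling, differed by less than the spread over spots. miR-146a was detected in both, at signals close to that of the lowest detected probe, and was slightly brighter in the gland. miR-146b and miR-155 were detected in neither. The ratio was 1.02 for miR-21 and 1.22 for miR-146a. Of the 2 members detected on both arrays, 0 were at least 1.5-fold higher or lower in the gland, where 2.11% of all 284 miRNAs detected on both arrays were past 1.5-fold higher and 9.15% past 1.5-fold lower. Of all calls in either direction 18.8% were higher, and 39.5% without scaling, but miR-21 and miR-146a passed 1.5-fold under none of the scalings tried. In whole tissue, fewer cells of a type and less RNA per cell cannot be told apart.

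For miR-21, which is raised in many tumours, all 20 spots of its 2 probes on each array were well above background. The first probe had a lowest, median and highest spot of 1546, 1756 and 2033 in the gland, with a mean of 1777 ± 181 (SD over 10 spots). In the inter region its lowest, median and highest spot were 1491, 1616 and 1802, with a mean of 1627 ± 105 (SD over 10 spots). Before any scaling, the spots of the regions overlapped over most of their range, and 4 of 10 gland spots were above every spot of the inter region. The second probe had spots of 1160, 1271 and 1389 (lowest, median, highest) in the gland, with a mean of 1271 ± 82.9 (SD over 10 spots). In the inter region its spots were at 1034, 1086 and 1189, with a mean of 1106 ± 52.0 (SD over 10 spots). Here 8 of 10 gland spots lay above every spot of the inter region, before any scaling between the arrays. After scaling, the quotient was 0.998 for the first probe and 1.05 for the second.
Over both probes the log2 ratio of miR-21 was 0.03, with an SD over spots of 0.11. The median of all miRNAs detected on both arrays was 0.05, and miR-21 ranked 152 of 284 from the highest ratio. With no scaling its log2 ratio was 0.16, more than its SD over spots, while that median was 0.18. It also exceeded that SD when scaled to the 75th percentile of every probe (0.19) or to the median probe (0.15), after quantile normalization (0.15), and with the total signals (0.12) or the summed probe totals (0.12) of the scanner software. Under the setting reported and the 11 alternatives tried, the difference of miR-21 from the median log2 ratio of all detected miRNAs stayed between -0.021 and -0.0052. Settings that change only the scaling factor of an array leave this difference unchanged by construction, so they say nothing about miR-21.

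miR-146a, of the pair that damps Toll-like receptor signalling, was read well above background by only 1 of its 2 probes. On the first probe the lowest, median and highest spot were 43.3, 59.8 and 71.2 in the gland, with a mean of 59.1 ± 8.27 (SD over 10 spots). In the inter region they were 40.6, 44.1 and 54.3, with a mean of 45.4 ± 4.15 (SD over 9 spots), and all these spots were well above background on both arrays. The distributions overlapped, with 8 of 10 gland spots above every spot used of the inter region, before any scaling between the arrays. The spot of that region left out as an outlier read 62.5, above the gland median of 59.8, so the count of 8 depends on leaving it out. The second probe had no spot well above background on either array. Its mean was 19.0 ± 3.78 (SD over 10 spots, from 12.5 to 23.8) in the gland and 13.1 ± 3.69 (SD over 10 spots, from 5.69 to 18.4) in the inter region. Of these spots 6 of 10 exceeded the highest negative control of their array in the gland and 0 of 10 in the inter region. The scaled quotient of the first probe was 1.19, and none is given for the second, which was not above background.
The signal of miR-146a over both probes was 1.27 times the lowest detected probe in the gland and 1.08 times in the inter region. Of the 284 miRNAs detected on both arrays, 249 were brighter in the gland and 260 in the inter region. With both probes averaged, the log2 ratio of miR-146a was 0.29 with an SD over spots of 0.22, which is 0.24 above the median of all detected miRNAs, and it ranked 48 of 284. With the brighter, detected probe alone it was 0.25. It was above 0 in the setting reported and in each of the 11 alternatives, and stayed under 1.5-fold in all of them except that with the total signals of the scanner software (1.68). At its lowest, with the normexp background correction, the log2 ratio was 0.11, less than its SD over spots.

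**Figure D1:**
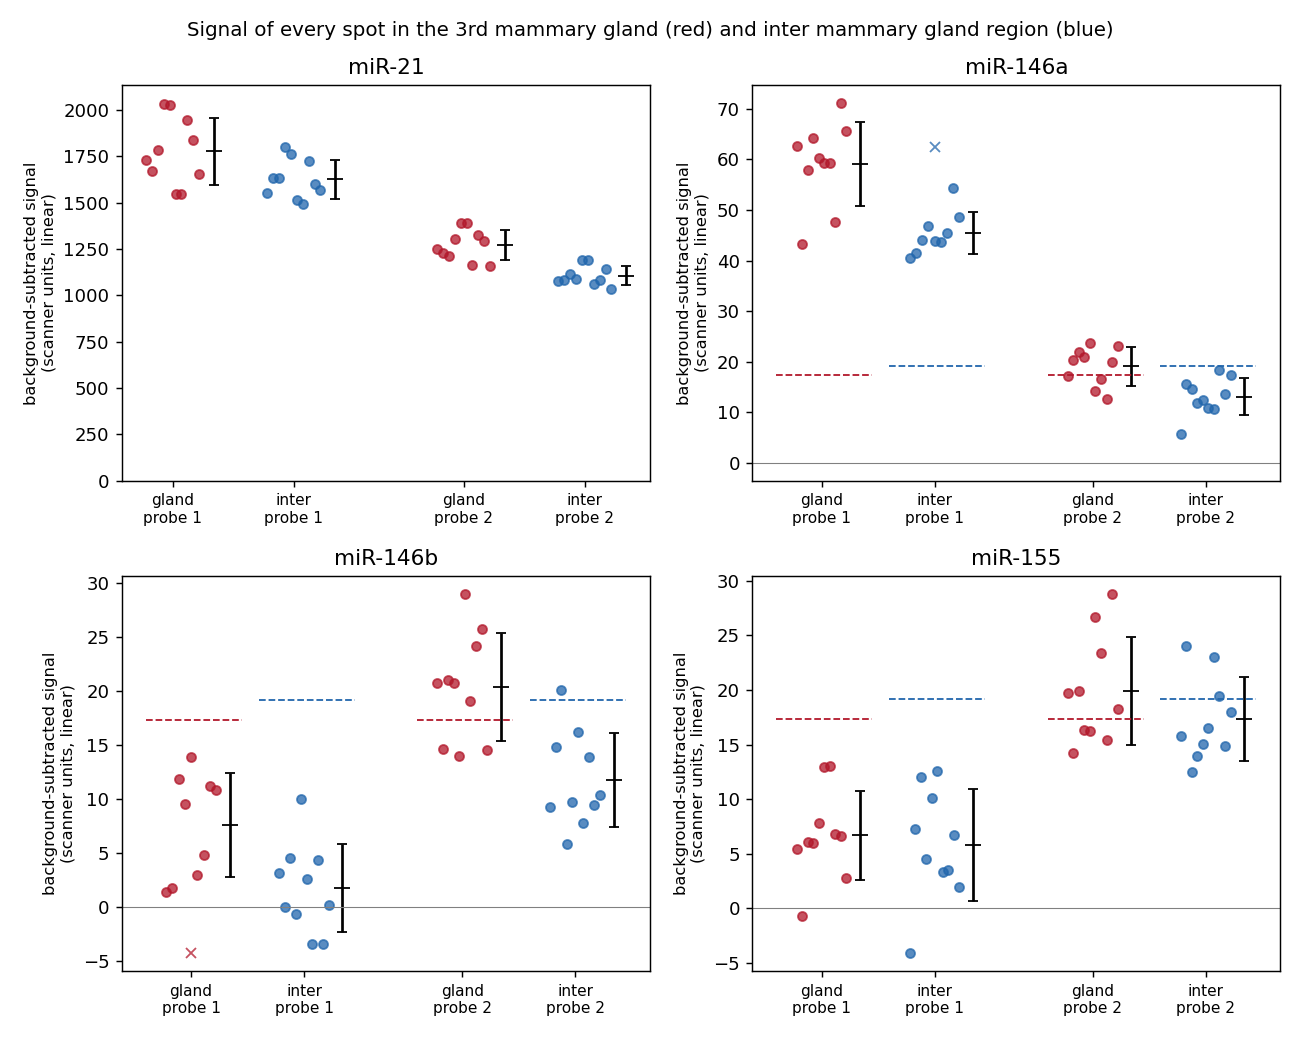
Background-subtracted signal of every spot, in linear scanner units, for the 2 probes of miR-21, miR-146a, miR-146b and miR-155 in the gland (red) and the inter region (blue), with the mean and SD over spots in black, outlier spots as crosses and, except for miR-21, the highest negative control spot of each array as a dashed line. The spots of the regions overlap for all 8 probes, and on the second probe 7 of 10 gland spots of miR-146b and 6 of 10 of miR-155 lie above the dashed line, while no spot of their first probes does.

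miR-146b, which has the miR-146a seed and a gene of its own on another chromosome, was dim. Of 19 spots used in the gland 1 was well above background, and of 20 in the inter region 0 were, so neither array detected it and no fold is given. Its first probe had a lowest, median and highest spot of 1.33, 9.50 and 13.9 in the gland, with a mean of 7.56 ± 4.83 (SD over 9 spots), and of -3.47, 1.37 and 9.97 in the inter region, with a mean of 1.71 ± 4.08 (SD over 10 spots). No spot of this probe exceeded the highest negative control. The second probe had spots of 14.0, 20.7 and 29.0 in the gland, with a mean of 20.3 ± 5.02 (SD over 10 spots), and of 5.82, 10.1 and 20.1 in the inter region, with a mean of 11.7 ± 4.36 (SD over 10 spots). On this probe 7 of 10 gland spots and 1 of 10 spots of the inter region were above the highest negative control of their array. Before any scaling between the arrays, 6 of 10 gland spots were above every spot of the inter region. Scaling lowers gland signals against those of the inter region and was not applied to this count.
The signal of miR-146b over both probes was 0.455 times the lowest detected probe in the gland and 0.248 times in the inter region. In units of the inter array the scaled signal was higher by 6.02 in the gland, more than in 98.4% of the 384 miRNAs detected on neither array, whose median difference was 1.32. The 384 leave out, by construction, any miRNA whose rise brought it to detection.

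miR-155, the product of Mir155hg that marks activated lymphocytes and macrophages, was read by 20 spots per array, of which 0 were well above background, and has no fold either. Its first probe had a lowest, median and highest spot of -0.68, 6.35 and 13.0 in the gland, with a mean of 6.68 ± 4.10 (SD over 10 spots), and of -4.13, 5.62 and 12.6 in the inter region, with a mean of 5.79 ± 5.09 (SD over 10 spots). The second probe had spots of 14.2, 19.0 and 28.8 in the gland, with a mean of 19.9 ± 4.94 (SD over 10 spots), and of 12.5, 16.2 and 24.0 in the inter region, with a mean of 17.3 ± 3.82 (SD over 10 spots). Before scaling, the spots overlapped almost wholly on both probes, with 2 of 10 gland spots above every spot of the inter region on each. On the second probe 6 of 10 gland spots and 3 of 10 spots of the inter region exceeded the highest negative control. In units of the inter array, the scaled signal was higher by 0.582 in the gland, which was more than in 33.9% of the miRNAs detected on neither array. A difference between the regions was not detectable for miR-155 at this signal.

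The deposited table of totals gives another picture of the dim members. Its value for a miRNA is the sum that Feature Extraction, the scanner software, makes over probes, and it lists 0.1 where the software did not call the miRNA detected. Over all 696 miRNAs and both arrays, the call equalled that of a rule by which at least 1 probe total exceeds 3 times its error. The listed total equalled the sum of those probes within 0.1% for all 335 miRNAs called in the gland and all 334 called in the inter region.
For miR-21 both probes were about 10.0 times their error on both arrays and were counted on both. The listed totals were 2019 (error 145) in the gland and 1771 (error 128) in the inter region, with a quotient of 1.14 before scaling.
For miR-146a the second probe was at 3.13 times its error in the gland and at 2.28 times in the inter region, so that 2 probes were summed in the gland and 1 in the other region. The listed totals were 51.8 (error 6.81) and 29.4 (error 4.67), with a quotient of 1.76. With both probes summed on both arrays the totals were 51.8 and 37.9, with a quotient of 1.37.
For miR-155 the second probe was at 3.25 times its error in the gland and at 2.96 times in the inter region, on either side of the limit. The table therefore lists 13.2 (error 4.05) in the gland against the stand-in of 0.1, though the sums over both probes were 17.6 and 15.0.
For miR-146b the second probe was at 3.32 times its error in the gland and at 2.05 times in the inter region, and the table lists 13.5 (error 4.06) against 0.1. The sums over both probes were 18.5 and 8.71. No fold can be taken from the listed values of miR-155 and miR-146b, since the divisor is not a measurement.

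**Figure D2:**
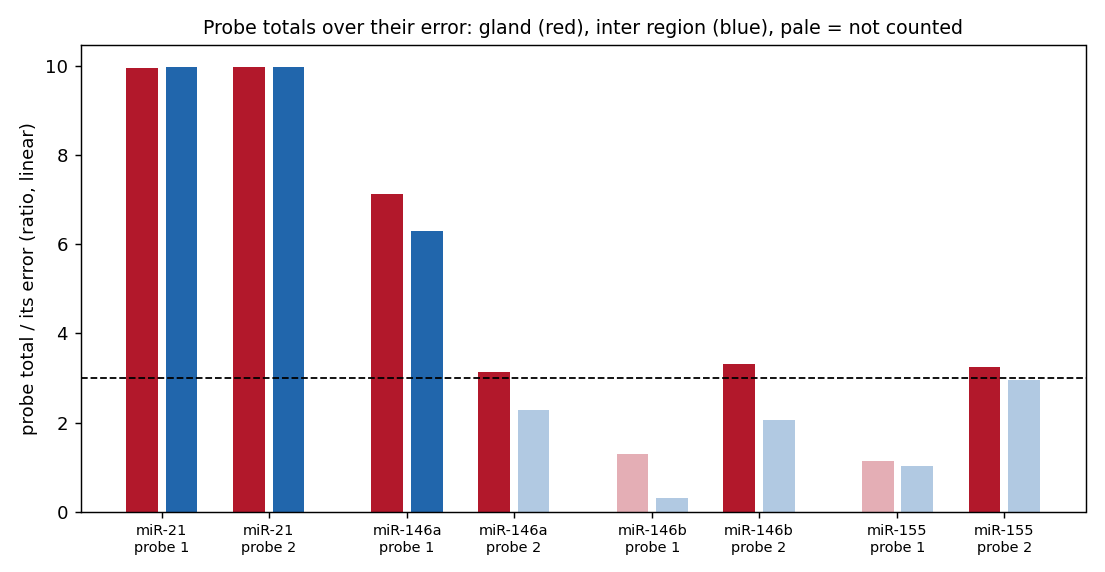
Total signal of each probe divided by its error, as the software gives them (a ratio on a linear axis from 0), for miR-21, miR-146a, miR-146b and miR-155 in the gland (red bars) and the inter region (blue bars). The dashed line marks 3 errors, above which a probe was counted (full colour), and the second miR-155 probe lies at 3.25 in the gland and 2.96 in the inter region.

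**Figure D3:**
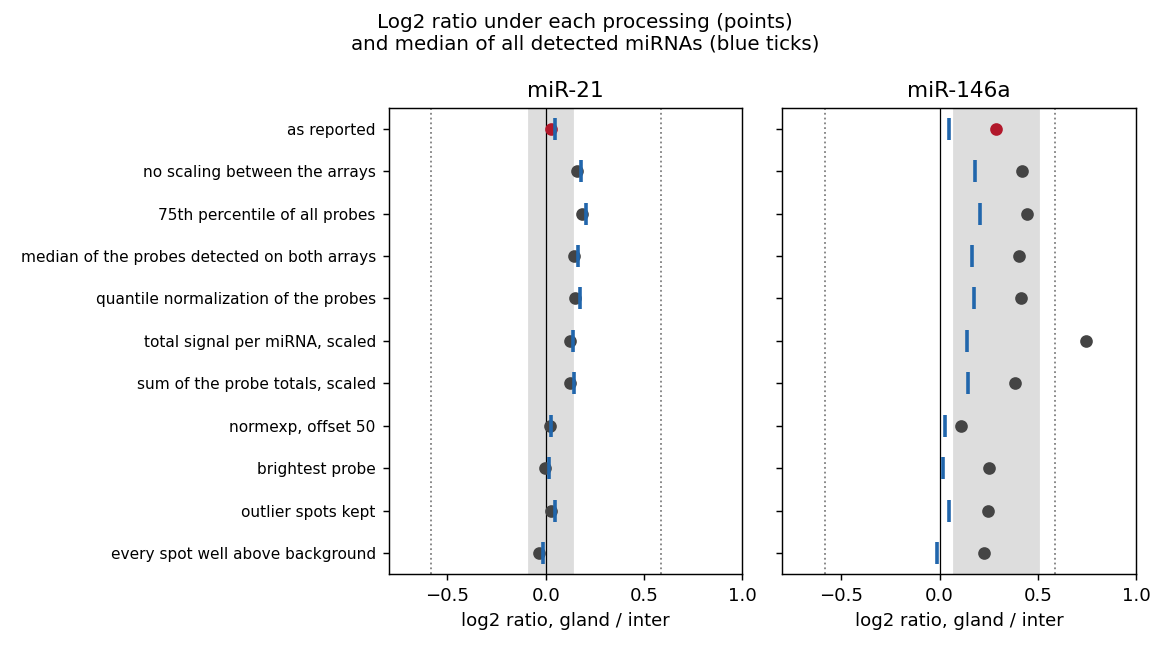
Log2 ratio of the gland over the inter region for miR-21 and miR-146a (points, in red for the setting reported) under each way of processing, with the median of all miRNAs detected on both arrays (blue ticks), the log2 ratio reported ± its SD over spots (grey) and 1.5-fold in either direction (dotted). miR-21 lies near the blue ticks, a distance that a change of scaling factor alone cannot alter. miR-146a passes 1.5-fold only with the total signals, at a log2 ratio of 0.75.

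The passenger strands, the arms of the hairpin that are mostly degraded, were also on the array for a pair of these miRNAs, as miR-21* and miR-146b*. Their sequences are shown to set them apart from the 5′ arms.
miR-21* (mmu-miR-21a-3p): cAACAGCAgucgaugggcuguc
miR-146b* (mmu-miR-146b-3p): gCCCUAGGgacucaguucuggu
Neither had a spot well above background on either array. The signal of miR-21* averaged 0.341 in the gland and -0.17 in the inter region, and that of miR-146b* was -3.00 and -2.18, below the mean of the negative controls in both regions. Of the names miR-21 and miR-21*, only the unstarred one was measured above background.

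The patterns most like those of the members were taken as the nearest log2 ratios among the miRNAs detected on both arrays, which is a likeness over 2 arrays only. For miR-21 they were miR-23b (0.026) and miR-154 (0.031), and for miR-146a miR-331-3p (0.290) and miR-149 (0.291). Within 1 SD over spots of miR-21 lay 87 other miRNAs, and of miR-146a 114, so these neighbours do not stand apart from many others.

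Of 13 other miRNAs known from inflammation and Toll-like receptor responses, 7 were detected on both arrays, and 0 of these were 1.5-fold higher or lower. Of all 284 miRNAs detected on both arrays, 11.3% were past 1.5-fold in either direction. The 7 had a median log2 ratio of -0.05, beside 0.05 for all 284. The highest was miR-125b-5p, which targets Tnf, at 0.41, and the lowest let-7i, which targets Tlr4, at -0.46. miR-132, an NF-κB and CREB responsive miRNA, was detected in the gland only, at a signal of 28.6 against 18.5, and gives no bound above 1. miR-9, miR-29b, miR-147, miR-187 and miR-511 were detected on neither array. Under quantile normalization miR-125b-5p was 1.71-fold higher, and the median of the list ran from -0.11 to 0.11 over the alternatives, on both sides of 0.

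Of 20 miRNAs known from breast tumours other than the 4, 17 were detected on both arrays with a median log2 ratio of 0.20. Past 1.5-fold was 1 of the 17, beside 11.3% of all 284 miRNAs detected on both arrays. The 1 past 1.5-fold was miR-206, a striated muscle miRNA that targets Esr1, 2.69-fold lower in the gland. The highest ratio was that of miR-96, at 0.56. With no scaling, miR-96 (1.61-fold), miR-200a (1.56-fold), which is among the epithelial miRNAs, and miR-182 (1.52-fold) were past 1.5-fold higher. miR-31, detected in the gland only, was at least 4.20-fold higher there, with the dimmest probe detected in the inter region as divisor. miR-21, at 0.03, thus lay under the median of this list. miR-146a, at 0.29, was above it by less than its SD over spots of 0.22, and after normexp was under it (0.11 against 0.20). The median of the list ran from 0.14 to 0.36 over the alternatives.

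Since miR-155, miR-146a and miR-21 are all expressed by blood cells, markers of other cell types are given beside them. Of 5 leukocyte miRNAs, 3 were detected on both arrays, namely miR-223 (log2 ratio -0.11), miR-142-3p (-0.06) and miR-342-3p (0.24), and miR-142-5p and the lymphocyte miRNA miR-150 were detected on neither. The summed scaled signal of all 5 was 1.22 in the gland and 1.13 in the inter region, of which miR-342-3p made up 0.685 and 0.580. The sums were thus similar, while the 3 log2 ratios lay on both sides of 0. The 3 red cell miRNAs summed to 7.40 and 5.50, of which miR-451 alone made up 7.23 and 5.32. Their log2 ratios went both ways, at 0.44 for miR-451, 0.15 for miR-144 and -0.39 for miR-486. The endothelial pair miR-126-3p and miR-126-5p summed to 2.75 and 2.64.
Of the lists, that of striated muscle had the median farthest from 0. All 4 of miR-1, miR-133a, miR-133b and miR-206 were at least 1.5-fold lower in the gland, beside 9.15% of all 284 miRNAs detected on both arrays. The 4 had a median log2 ratio of -1.24, and sums of 2.09 in the gland and 5.02 in the inter region. The 7 epithelial miRNAs had a median of 0.34, none past 1.5-fold, and were detected in both regions. They went both ways, from -0.31 for miR-203 to 0.51 for miR-200a, and the brightest, miR-205, was at -0.02. The part of any of these cell types in the signals of miR-21 and miR-146a was not tested.

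**Figure D4:**
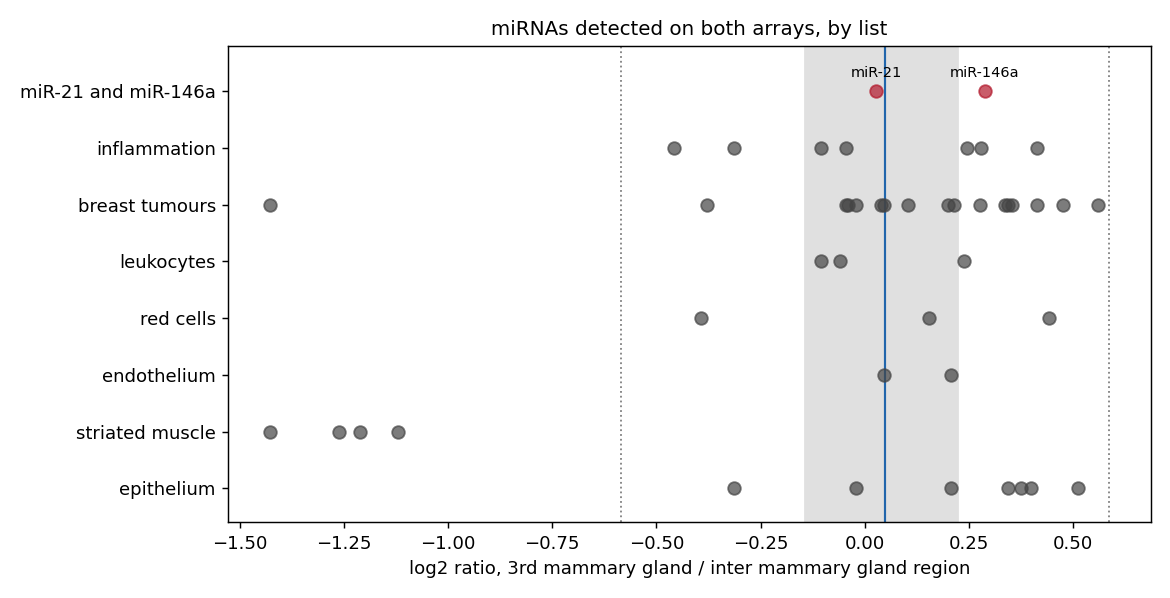
Log2 ratio of the gland over the inter region for each miRNA detected on both arrays (points), by list, with the median of all 284 such miRNAs (blue line), the middle of their range from the 25th to the 75th percentile (grey) and 1.5-fold in either direction (dotted). miR-21 (0.03) lies within the grey band, miR-146a (0.29) just above it, and the 4 striated muscle miRNAs lie far to the left.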

How the data were processed

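The spots were quantified by the authors in Feature Extraction (version 10.7.3.1, file header). The deposited intensity of each spot is background-subtracted, linear and not normalized between arrays, and the deposited table gives a total intensity per miRNA, made by the software. The methods name GeneSpring for normalization, but no scaling. The array's grid names build mm9, while the RefSeq sequences and their coordinates are of GRCm38.p6 and were used for identity only, since the files hold no coordinates.

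Control and outlier spots were left out, spots of a probe averaged, arrays scaled and probes averaged. The SD of a log2 ratio combines the SDs over spots of both arrays. Named miRNAs were the members, their passenger strands, the 2 nearest log2 ratios to each detected member and, of each list, those past 1.5-fold or else the highest and lowest. miR-132, miR-31 and the dim or marker miRNAs named besides were chosen after their values were seen. The members and lists were chosen with earlier results of these data known. Steps were tested on simulated spots. The tools were limma 3.58.1 in R 4.3.3, and Python 3.11.15 with pandas 2.3.3, numpy 2.4.6 and matplotlib 3.10.9.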

Additional observations from a re-analysis of the deposited data

How the results depend on the processing

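The number of arrays, 1 per region, and the signal over background limit every value. The sum of the probe totals was chosen as an alternative after the data were examined. The planned normexp correction used the median pixel value of each spot, before background subtraction. No paired analysis was possible because a single array was made per region. For the changes below the cause was not tested, except that the stricter threshold and filter lower counts by construction.

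The log2 ratio of miR-21, 0.03, was 0.16 with no scaling, 0.19 with the 75th percentile of all probes, 0.15 when scaled to the median probe and 0.15 after quantile normalization, and the median of all miRNAs moved from 0.05 to 0.18, 0.21, 0.17 and 0.17. That of miR-146a, 0.29, was 0.75 with the total signals, for which a different number of its probes was summed on each array. miR-146b and miR-155 have no fold, and the log2 quotients of their undetected signals are given only as a description. That of miR-146b, 0.92, was 0.12 after normexp, whose offset draws ratios toward 1. That of miR-155, 0.07, moved by less than its SD over spots under each alternative that gave a value, from -0.01 to 0.23. The total signals gave no quotient for miR-146b and miR-155. By the software's own call each of them was detected on 1 array, the gland's, in place of 0.

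The number of miRNAs detected on both arrays and at least 1.5-fold higher in the gland, 6, was 15 without scaling, 15 when scaled to the median probe, 19 when scaled to the 75th percentile over every probe, 14 after quantile normalization, 14 for the total signals, 13 for the summed probe totals, 13 under the software's own call, 2 after normexp, 3 with dim miRNAs left out and 0 at 2-fold. The number lower, 26, was 13 with dim miRNAs left out, 16 at 2-fold, 18 after normexp and 33 under the software's own call. Under the other alternatives it lay between 22 and 26. The share of higher among those past 1.5-fold, 18.8%, was 39.5% without scaling, 46.3% when scaled to the 75th percentile over every probe and 10.0% after normexp. Of the list miRNAs 0 were higher, and 3 without scaling, when scaled to the median probe or after quantile normalization, 4 when scaled to the 75th percentile over every probe, 2 for the total signals or the summed probe totals, and 1 under the software's own call.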

Other observations

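The dim members were not alone in the totals. Of the 696 miRNAs, 23 were called detected by the software on 1 array only, and 17 of these had no probe on either array with most spots well above background. In 11 of the 17, miR-146b and miR-155 included, the call was made in the gland, and in 6 in the inter region. Of the 284 miRNAs detected on both arrays by spots, 12, among them miR-146a, had different probes summed in the totals of the regions.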
